A study of Homo sapiens with 6 samples.

Results

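Interferon-stimulated genes and the sensors of foreign or misplaced nucleic acid were followed in TFK1, a cholangiocarcinoma cell line, with and without overexpression of STUB1, an E3 ubiquitin ligase also known as CHIP. The set was a fixed list of gene symbols, chosen with earlier results of these data known. It held 56 symbols covering sensors, their adaptors, IRF and STAT transcription factors and antiviral effectors. Of these, 55 were among the 23569 genes of the expression table. RIGI was the symbol not listed, and it is the newer name of DDX58, which was listed. RNA-seq libraries came from 3 samples of TFK1 cells carrying a lentiviral negative control (oeNC) and 3 samples of TFK1 cells carrying a lentiviral STUB1 construct (oeSTUB1). The study's methods describe lentiviral transduction and puromycin selection for its stable cells. The paper does not name the vector of this control, so whether it was the one used for STUB1 is not given. No untransduced cells were analysed here. Each group came from stably transduced cells of a single line. The study's statement that its experiments were independent repeats does not name the RNA-seq samples or say whether they were separate transductions or cultures. If they were not, p-values measure only the spread between these samples, which may be technical. The study set this comparison beside public data on DNMT1 binding to look for tumour suppressor genes controlled through STUB1, UHRF1 and DNMT1. UHRF1 is a DNA methylation regulator that works with the DNA methyltransferase DNMT1, and only STUB1 was overexpressed here.

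In vertebrate cells, RIG-I and MDA5 (encoded by DDX58 and IFIH1) recognise double-stranded RNA in the cytosol and signal through MAVS, whereas cGAS recognises cytosolic DNA and signals through STING1. Both routes converge on the kinase TBK1 and on IRF3 and IRF7, which switch on interferon genes. Secreted interferon acts through its receptors, JAK kinases and a transcription factor complex holding STAT2 and IRF9 that binds the interferon-stimulated response element, a promoter sequence of many effector genes that block viral entry, translation or replication, and epithelial cells hold many of these genes at a low level without infection.

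Expression is given as FPKM, fragments scaled to gene length and library size, and values of 3 libraries always stand in the order of replicates 1, 2 and 3. The 6 libraries held 33106564 to 36744521 fragments. Differences are log2 fold changes of FPKM + 0.1, oeSTUB1 minus oeNC, which understate the change of genes near or under 0.1 FPKM, and a gene was called at a Benjamini-Hochberg adjusted p under 0.05 over the 15353 genes that averaged 0.1 FPKM or more. STUB1 itself was at 32.9, 33.0 and 30.9 in oeNC and 61.4, 75.0 and 61.9 FPKM in oeSTUB1, every oeSTUB1 library above every oeNC library, with a log2 fold change of 1.03 (SE 0.10, limma, adjusted p = 0.000642). One library stood apart: in oeSTUB1 replicate 2 the 3841 shortest genes lay 0.261 above and the 3838 longest genes 0.262 below the mean over all libraries (median log2 deviation), and its chi-square per degree of freedom against the other oeSTUB1 libraries was 82.6 and 76.7, against 10 between those other libraries and 3.48 to 10.4 within oeNC. Of the biliary epithelial markers KRT7, KRT8, KRT18 and CDH1 were all expressed, but KRT19, a keratin that defines bile duct cells, was at only 0.453 ± 0.0776 in oeNC and 2.97 ± 0.454 FPKM in oeSTUB1 (SD, n = 3 each). In bulk samples, fewer cells that express a gene and less of its RNA per cell cannot be told apart.

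More members were higher than lower in oeSTUB1. Of the 48 members that passed the filter on low values, 20 rose (41.7%), against 7.01% of all genes tested, and 1 fell, SP110, against 6.59% of all genes. Past 2-fold, 10 members rose, against 2.79% of all genes, and 0 fell in the limma test, against 2.4% of all genes; 0 fell past 2-fold at an unadjusted p under 0.05 or with limma-voom either. All 3 oeSTUB1 libraries were above all 3 oeNC libraries for 27 tested members (background 21.5%) and below them for 2, OAS1 and SP110 (background 17.3%). The median log2 fold change over the tested members was 0.52, against 0.02 over all genes tested, and 40 of the 48 lay above 0 (83.3%), against 52.7% of all genes. With 1 library left out, 9, 8 and 11 members rose without oeNC replicates 1, 2 and 3 and 10, 25 and 13 without oeSTUB1 replicates 1, 2 and 3, and SP110 was called lower in 1 of these 6 fits, the one without oeSTUB1 replicate 2. The share of all genes called higher moved too, from 7.01% to 14.8% without oeSTUB1 replicate 2. For the other fits that share is not given here, so a change in the number of members is not particular to them. The counts of members cover only those that passed the filter. GBP1 and IFI44, which were called, and OASL and CMPK2, which were not, passed it only through their oeSTUB1 level. Members that lie side by side in the genome or share sequence are not independent of each other. The members were chosen with earlier results of these data known, so the contrast with all genes is a description and not a test.

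The members that rose were mostly of low to moderate abundance. A mean under 1 FPKM in oeNC was seen for 10 of the 20, and 5 of them, CGAS, IFI16, MX1, GBP1 and IFI44, stayed under 1 FPKM in oeSTUB1 as well. Among the 10 tested members that averaged 10 FPKM or more, 2 were called, IFITM2 and IFITM3, while MAVS, TBK1, IRF3, OAS1, OAS3, EIF2AK2, ADAR and IFI35 were not. Limma called 7.01% of all genes tested higher and 6.59% lower, so 10 genes are too few to be set apart from those shares.

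**Figure D1:**
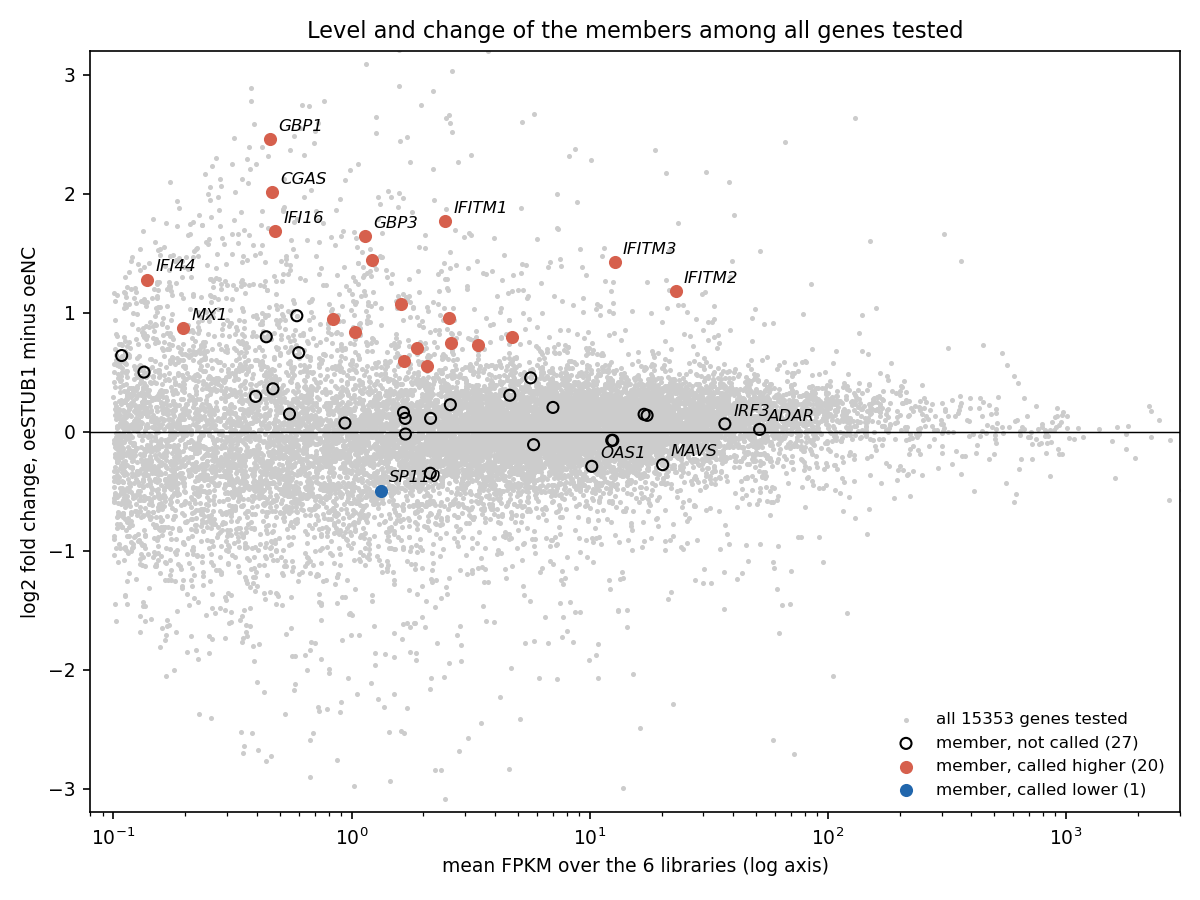
Mean FPKM over the 6 libraries (x, log axis) against the log2 fold change of FPKM + 0.1, oeSTUB1 minus oeNC (y), for all 15353 genes tested (grey, 32 beyond the axes not drawn) and the 48 tested members (circles; filled where called). The members called higher lie between 0.138 FPKM (IFI44) and 22.9 FPKM (IFITM2), and the most abundant members, ADAR and IRF3, lie near 0.

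Promoter sequence is shown for 4 of the members that rose past 2-fold, those with the largest log2 fold change among members of at least 1 FPKM in oeSTUB1 for which the RefSeq promoter table (GRCh38.p14) has an entry; GBP2 and IFITM2 have none. Each line runs 5′ to 3′ on the gene's own strand from 180 bases before the annotated start to 20 bases after it, and capitals mark the core of the interferon-stimulated response element, searched as GAAANNGAAA or its complement TTTCNNTTTC. IFITM1 (chr11:313860-314059, plus strand), IFITM3 (chr11:320841-321040, minus strand), GBP3 (chr1:89022847-89023046, minus strand) and SAMD9 (chr7:93117960-93118159, minus strand) read as follows.
IFITM1: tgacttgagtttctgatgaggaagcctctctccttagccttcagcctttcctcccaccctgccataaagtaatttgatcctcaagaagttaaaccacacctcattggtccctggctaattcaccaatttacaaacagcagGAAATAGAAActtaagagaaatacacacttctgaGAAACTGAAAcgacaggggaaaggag
IFITM3: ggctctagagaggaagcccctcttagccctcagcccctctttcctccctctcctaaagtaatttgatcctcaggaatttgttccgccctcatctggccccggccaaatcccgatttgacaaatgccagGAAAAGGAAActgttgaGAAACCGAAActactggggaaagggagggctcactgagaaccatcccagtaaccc
GBP3: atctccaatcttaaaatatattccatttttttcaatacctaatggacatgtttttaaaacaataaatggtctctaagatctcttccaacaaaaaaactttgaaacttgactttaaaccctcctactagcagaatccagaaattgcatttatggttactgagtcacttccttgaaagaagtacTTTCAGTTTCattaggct
SAMD9: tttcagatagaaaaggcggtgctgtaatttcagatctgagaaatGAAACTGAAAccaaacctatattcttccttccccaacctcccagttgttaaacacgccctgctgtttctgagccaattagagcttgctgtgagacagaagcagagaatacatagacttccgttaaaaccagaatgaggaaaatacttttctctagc
The IFITM1 and IFITM3 promoters each held 2 cores shortly before the start, at 40 and 6 bases before it in IFITM1 and at 52 and 35 bases before it in IFITM3. GBP3 held 1 core just after the start and SAMD9 held 1 core 136 bases before it. The full windows of 250 bases before to 50 after the start contained 3 CpG in IFITM1, 8 in IFITM3, 4 in SAMD9 and 0 in GBP3, against a median of 14 over all 35116 promoters of the table.

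Over the 41 members with a promoter in the table, 23 windows (56.1%) held at least 1 core, against 3.57% of all promoters. A core stood in 11 of the 16 promoters of members that rose (68.8%) and in 11 of the 21 promoters of tested members that were not called (52.4%). The promoter of SP110, which fell, held 0. The median number of CpG was 7 in the promoters of members that rose and 12 in those of tested members not called. A match describes letters in a window and is not a binding site, and the members were listed as interferon-responsive genes in the first place.

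Of the sensors, 3 of the 5 tested rose, against 7.01% of all genes tested. CGAS, the cytosolic DNA sensor that makes cyclic GMP-AMP, was at 0.0900, 0.117 and 0.170 in oeNC and 0.807, 0.821 and 0.777 FPKM in oeSTUB1. The 3 oeSTUB1 libraries were almost equal and each at least 4 times the highest oeNC library. The log2 fold change was 2.01 (SE 0.20, limma, adjusted p = 0.000745), and the ratio of group means was 6.38. These levels rested on few reads, 10, 13 and 20 fragments in oeNC and 89, 87 and 85 in oeSTUB1. IFI16, a nuclear and cytosolic DNA sensor of the PYHIN family, also rose, at 0.152, 0.157 and 0.215 in oeNC and 0.841, 0.688 and 0.815 FPKM in oeSTUB1, again with no overlap of the groups. Its log2 fold change was 1.68 (SE 0.19, limma, adjusted p = 0.00127), from 28, 29 and 42 fragments in oeNC and 154, 121 and 148 in oeSTUB1.

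DDX58, which encodes the RNA sensor RIG-I, was the most abundant sensor and rose by less. It was at 1.19, 1.30 and 1.41 in oeNC and 2.23, 1.92 and 1.90 FPKM in oeSTUB1, with the groups apart in every library and a log2 fold change of 0.60 (SE 0.13, limma, adjusted p = 0.0212, called in 2 of 6 fits leaving out 1 library). DDX58 lies on chromosome 9, where the 617 genes tested had a median log2 fold change of 0.16 and 33.1% lay below 0, and the part of this in the DDX58 value was not tested. IFIH1, which encodes the second cytosolic RNA sensor MDA5, and TLR3, the endosomal double-stranded RNA receptor, overlapped between the groups. The log2 fold change of IFIH1 was 0.07 (95% interval -0.42 to 0.56, limma, adjusted p = 0.853), and that of TLR3 was 0.15 (95% interval -0.34 to 0.64, limma, adjusted p = 0.682), so changes of the size seen in CGAS lay outside both intervals. IFIH1 is on chromosome 2, where the 1039 genes tested had a median of -0.21 and 77.4% lay below 0.

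Over all genes tested, limma called 7.01% higher and 6.59% lower. Of the 3 tested adaptor and kinase genes, 0 were called by limma at the adjusted threshold, and 0 at an unadjusted p under 0.05 or with limma-voom. These 3 genes are too few to be set apart from those shares. MAVS, the mitochondrial adaptor of RIG-I and MDA5 and the most abundant of them, was at 21.2, 22.6 and 21.7 in oeNC and 21.3, 12.3 and 22.2 FPKM in oeSTUB1. A single library, oeSTUB1 replicate 2, was far below the other 5, which lay together. The log2 fold change was -0.28 (95% interval -0.76 to 0.21, limma, adjusted p = 0.418), and without that library it was -0.00305 (adjusted p = 0.973). Corrected for gene length, the log2 fold change was -0.17 (limma, adjusted p = 0.265). The part of gene length, 11855 recovered bases for MAVS, in the value of that library was not tested. STING1, the adaptor downstream of cGAS, was at 0.444, 0.351 and 0.375 in oeNC and 0.377, 0.747 and 0.510 FPKM in oeSTUB1, with overlapping groups and a log2 fold change of 0.36 (95% interval -0.19 to 0.91, limma, adjusted p = 0.356). TBK1, the kinase that activates IRF3, was slightly higher in all 3 oeSTUB1 libraries at 17.1, 16.4 and 16.3 in oeNC and 18.9, 17.6 and 18.2 FPKM in oeSTUB1, and the difference of 0.14 (95% interval -0.03 to 0.30, limma, adjusted p = 0.254) did not pass the test.

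Of the 6 transcription factors tested, 2, IRF1 and IRF7, rose, against 7.01% of all genes tested, and the other 4 were not called. IRF1, an activator that is itself induced by interferon, was at 2.96, 3.07 and 4.31 in oeNC and 5.41, 6.41 and 6.12 FPKM in oeSTUB1. Every oeSTUB1 library exceeded oeNC replicate 3, the highest of the controls, and the log2 fold change was 0.79 (SE 0.16, limma, adjusted p = 0.0146, called in 4 of 6 fits leaving out 1 library). IRF7, the factor that amplifies type I interferon production, was at 0.840, 0.645 and 0.648 in oeNC and 1.26, 1.67 and 1.15 FPKM in oeSTUB1, with no overlap and a log2 fold change of 0.84 (SE 0.18, limma, adjusted p = 0.0225, called in 3 of 6 fits leaving out 1 library). Both genes are low to moderate in level compared with IRF3.

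IRF3, the constitutive factor phosphorylated by TBK1, was the most abundant factor at 37.4, 34.1 and 36.3 in oeNC and 34.3, 45.2 and 34.1 FPKM in oeSTUB1. The groups overlapped, with oeSTUB1 replicate 2 above all others, and the log2 fold change was 0.06 (95% interval -0.21 to 0.34, limma, adjusted p = 0.756). Its sign turned with a correction for gene length, with quantile normalization and without oeSTUB1 replicate 2, so no direction can be given. IRF9, the DNA-binding partner of STAT2, was at 6.39, 6.66 and 6.42 in oeNC and 6.91, 8.28 and 7.33 FPKM in oeSTUB1, above oeNC in every oeSTUB1 library, and its difference of 0.20 (95% interval -0.02 to 0.42, limma, adjusted p = 0.198) did not pass. STAT2 was at a log2 fold change of -0.11 (95% interval -0.36 to 0.14, limma, adjusted p = 0.537) and IRF2, a repressor related to IRF1, at -0.02 (95% interval -0.39 to 0.34, limma, adjusted p = 0.946).

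**Figure D2:**
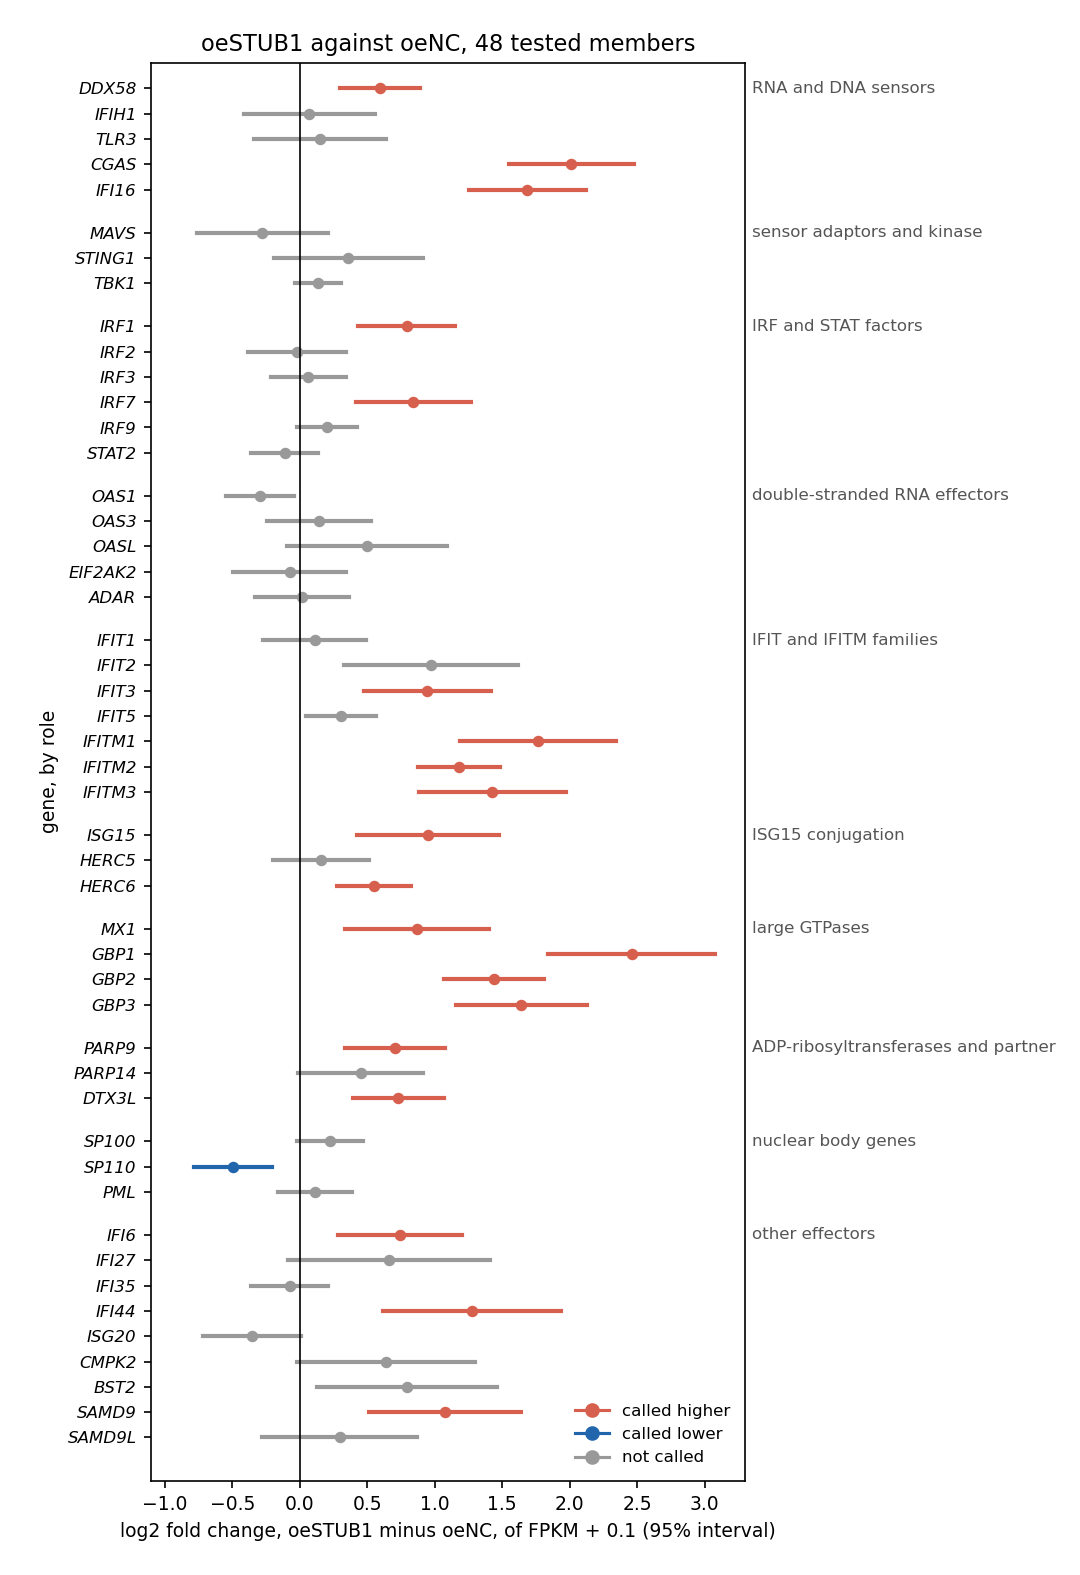
Log2 fold change of FPKM + 0.1, oeSTUB1 minus oeNC (points), with its 95% interval from limma (lines), for the 48 tested members grouped by role. Red marks the 20 members called higher, blue the 1 called lower and grey the 27 not called; all 4 tested large GTPases and 3 of 3 IFITM genes are red, and the 5 double-stranded RNA effectors and 3 adaptor genes are all grey.

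The effectors that act directly on double-stranded RNA held no called member: 0 of 5 were called by limma, 0 with limma-voom and 1, OAS1, at an unadjusted p under 0.05. Over all genes tested, limma called 7.01% higher and 6.59% lower, so 5 genes are too few to be set apart from those shares. ADAR, the RNA editing enzyme and the most abundant member of the whole set, was at 51.0, 50.9 and 50.7 in oeNC and 59.0, 39.6 and 58.7 FPKM in oeSTUB1. Both other oeSTUB1 libraries were above and oeSTUB1 replicate 2 was below all controls, which themselves hardly differed. The log2 fold change was 0.02 (95% interval -0.33 to 0.37, limma, adjusted p = 0.949), and without oeSTUB1 replicate 2 it was 0.21 (adjusted p = 0.00828), with leave-one-out adjusted p between 0.00828 and 0.969. OAS1, a synthetase of 2′-5′ oligoadenylate that activates RNase L, was lower in every oeSTUB1 library at 11.1, 11.1 and 11.4 in oeNC and 7.90, 9.25 and 10.4 FPKM in oeSTUB1, and the difference of -0.29 (95% interval -0.54 to -0.04, limma, adjusted p = 0.120) did not pass. OAS3, the long member of that family, was at 16.0, 16.0 and 15.7 in oeNC and 20.1, 13.1 and 20.6 FPKM in oeSTUB1 and followed the same pattern over the libraries as ADAR. Its log2 fold change was 0.15 (95% interval -0.24 to 0.53, limma, adjusted p = 0.602), and without oeSTUB1 replicate 2 it was 0.36 (adjusted p = 0.00226), with leave-one-out adjusted p between 0.00226 and 0.924. EIF2AK2, the kinase PKR that halts translation, had a log2 fold change of -0.07 (95% interval -0.49 to 0.34, limma, adjusted p = 0.822). OASL, a catalytically inactive relative of the OAS enzymes, was low at 20, 11 and 14 fragments in oeNC and 37, 23 and 21 in oeSTUB1, with a log2 fold change of 0.50 (95% interval -0.09 to 1.09, limma, adjusted p = 0.238).

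The IFIT and IFITM families held the most abundant genes that rose. IFITM proteins sit in membranes and hinder the entry of enveloped viruses. IFITM2 was at 12.0, 13.6 and 16.5 in oeNC and 28.1, 33.7 and 33.5 FPKM in oeSTUB1, with no overlap of the groups and a log2 fold change of 1.18 (SE 0.13, limma, adjusted p = 0.00127). IFITM3 was at 6.56, 4.77 and 9.84 in oeNC and 16.1, 20.2 and 18.8 FPKM in oeSTUB1. The controls were spread, with replicate 3 the highest, yet every oeSTUB1 library lay above it, and the log2 fold change was 1.42 (SE 0.24, limma, adjusted p = 0.00713). IFITM1 was at 1.04, 0.734 and 1.47 in oeNC and 4.61, 3.93 and 2.98 FPKM in oeSTUB1, with a log2 fold change of 1.77 (SE 0.25, limma, adjusted p = 0.00358). The 3 genes are near-identical copies in part of their sequence and lie beside each other on chromosome 11, and in GENCODE v29 the whole of IFITM1 (1767 bases) lies inside the annotated span of IFITM2 on the same strand. How the counting divided fragments between them is not given in the sources used here, so the value of each gene alone is uncertain.

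IFIT proteins bind viral RNA with foreign 5′ ends and block its translation, and of the 4 family members IFIT3 alone was called in the fit reported here. IFIT3, a scaffold for IFIT1, was at 0.497, 0.442 and 0.678 in oeNC and 1.23, 0.891 and 1.26 FPKM in oeSTUB1, with no overlap and a log2 fold change of 0.94 (SE 0.20, limma, adjusted p = 0.0214, called in 2 of 6 fits leaving out 1 library). IFIT2 was at 0.204, 0.408 and 0.513 in oeNC and 0.941, 0.801 and 0.664 FPKM in oeSTUB1, also apart, but its controls varied more and its log2 fold change of 0.97 (95% interval 0.33 to 1.62, limma, adjusted p = 0.0570) missed the threshold. IFIT2 was called in 4 of 16 alternatives, fits that changed 1 processing choice or left out 1 library, and was not tested at the filter of 1 FPKM. Its adjusted p was 0.0394 after the length correction, 0.0473 with limma-voom, 0.039 with quantile normalization and 0.0396 at a pseudocount of 1. Its leave-one-out adjusted p lay between 0.0575 and 0.14. IFIT5 had a log2 fold change of 0.31 (95% interval 0.05 to 0.56, limma, adjusted p = 0.113) with no overlap of the groups. IFIT1, which binds RNA lacking a 2′-O-methylated cap, was at 1.85, 1.69 and 1.30 in oeNC and 1.60, 1.62 and 2.01 FPKM in oeSTUB1, with overlapping groups and a log2 fold change of 0.11 (95% interval -0.27 to 0.49, limma, adjusted p = 0.697). Within a cluster of neighbouring genes on chromosome 10, IFIT1 and IFIT3 therefore had different calls, and the difference between the genes was not tested.

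ISG15, a ubiquitin-like protein joined to other proteins during the interferon response, was at 1.76, 1.40 and 1.88 in oeNC and 2.87, 4.79 and 2.66 FPKM in oeSTUB1. The groups were apart, but oeSTUB1 replicate 2 was well above its 2 companions, and the log2 fold change was 0.95 (SE 0.23, limma, adjusted p = 0.0307, called in 2 of 6 fits leaving out 1 library). Its call stood in 8 of 16 alternatives. It was also lost with limma-voom, eBayes without a trend, no filter and the replicate block. HERC5 and HERC6 encode ligases of the HERC family, HERC5 being the main human ligase for ISG15. HERC6 was at 1.70, 1.56 and 1.71 in oeNC and 2.33, 2.36 and 2.73 FPKM in oeSTUB1, with a log2 fold change of 0.55 (SE 0.12, limma, adjusted p = 0.0210, called in 2 of 6 fits leaving out 1 library). HERC5, which lies beside it on chromosome 4, was at 1.54, 1.60 and 1.50 in oeNC and 1.85, 2.02 and 1.40 FPKM in oeSTUB1. Its groups overlapped through oeSTUB1 replicate 3, and the log2 fold change was 0.16 (95% interval -0.20 to 0.52, limma, adjusted p = 0.530).

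All 4 tested large GTPases rose, against 7.01% of all genes tested. Of these, GBP1 averaged 0.0768 FPKM in oeNC and passed the filter of 0.1 FPKM only through its oeSTUB1 level. Its place in this count therefore depends on its rise. GBP1, a guanylate-binding protein that coats intracellular pathogens and is induced above all by interferon gamma, had the largest log2 fold change of the set, 2.46 (SE 0.27, limma, adjusted p = 0.00118). It was at 0.0191, 0.0763 and 0.135 in oeNC and 0.835, 0.829 and 0.842 FPKM in oeSTUB1. The oeSTUB1 libraries were nearly equal, and the controls were close to nothing, with 2, 8 and 15 fragments in oeNC and 87, 83 and 87 in oeSTUB1, so the ratio of group means, 10.9, rests on a handful of control fragments. GBP2 was at 0.543, 0.579 and 0.706 in oeNC and 1.78, 1.60 and 2.09 FPKM in oeSTUB1, with a log2 fold change of 1.44 (SE 0.16, limma, adjusted p = 0.00127). GBP3 was at 0.615, 0.547 and 0.355 in oeNC and 1.50, 1.75 and 2.06 FPKM in oeSTUB1, with a log2 fold change of 1.64 (SE 0.21, limma, adjusted p = 0.00236). In both, the lowest oeSTUB1 library was over 2 times the highest oeNC library. The 3 GBP genes are related copies within one cluster on chromosome 1, so their reads may be divided between them by the counting. MX1, a dynamin-like GTPase that traps viral nucleocapsids, was at 0.0691, 0.128 and 0.135 in oeNC and 0.313, 0.248 and 0.286 FPKM in oeSTUB1, with a log2 fold change of 0.87 (SE 0.23, limma, adjusted p = 0.0447, called in 1 of 6 fits leaving out 1 library) from 14, 26 and 29 fragments in oeNC and 63, 48 and 57 in oeSTUB1.

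**Figure D3:**
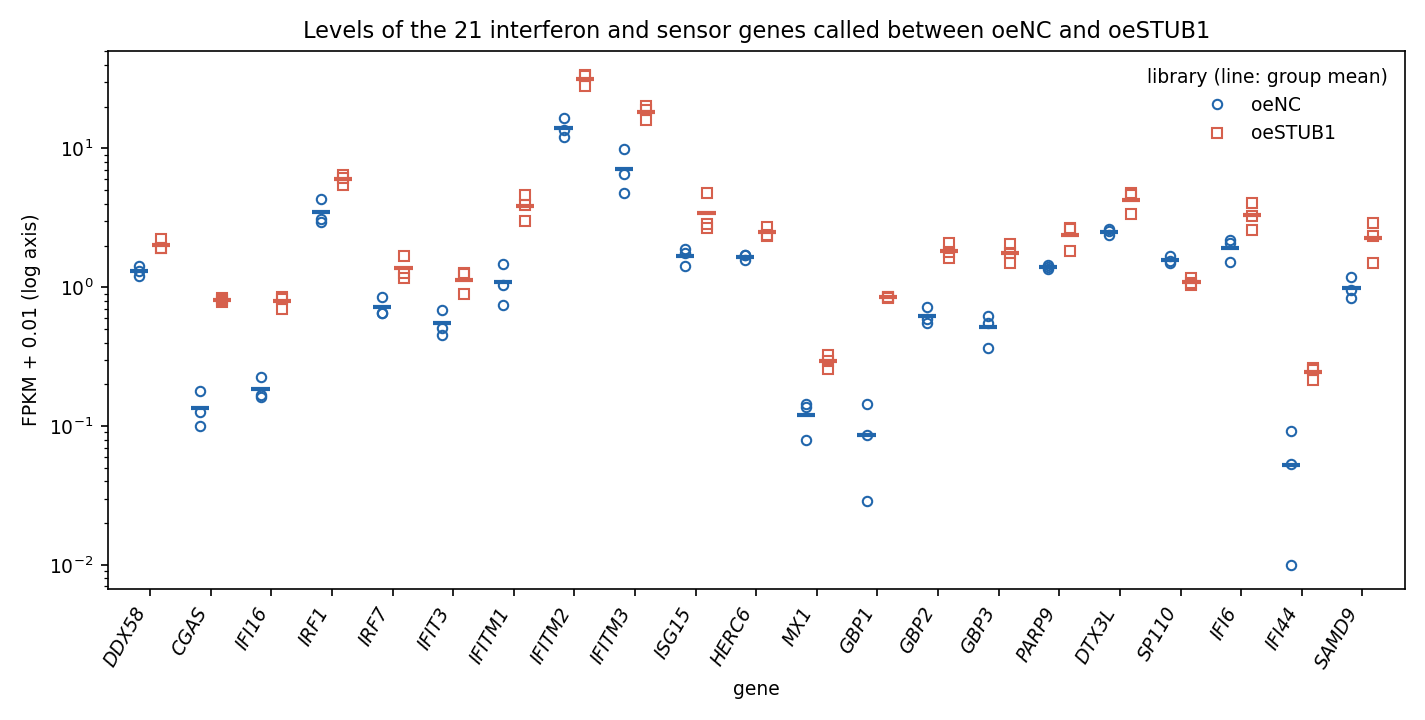
FPKM + 0.01 (y, log axis) of the 21 called members in each oeNC library (blue circles) and each oeSTUB1 library (red squares); lines are group means over 3 libraries. In 20 genes all red squares lie above all blue circles and in SP110 all lie below; IFITM2 is the highest and IFI44 the lowest of the called genes.

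PARP9 and DTX3L, which work as a complex of an ADP-ribosyltransferase and a ubiquitin ligase, rose together. PARP9 was at 1.39, 1.36 and 1.43 in oeNC and 2.60, 1.83 and 2.65 FPKM in oeSTUB1, with a log2 fold change of 0.71 (SE 0.16, limma, adjusted p = 0.0260, called in 1 of 6 fits leaving out 1 library). DTX3L was at 2.53, 2.38 and 2.60 in oeNC and 4.77, 3.38 and 4.64 FPKM in oeSTUB1, with a log2 fold change of 0.73 (SE 0.15, limma, adjusted p = 0.0160, called in 1 of 6 fits leaving out 1 library). The pair share a start region on chromosome 3, where their annotated spans on opposite strands overlap by 340 bases, and in both oeSTUB1 replicate 2 was the lowest of its group. PARP14, an ADP-ribosyltransferase of the same locus and the most abundant of the 3, was at 5.003, 4.31 and 4.73 in oeNC and 7.69, 4.52 and 7.62 FPKM in oeSTUB1. Here replicate 2 of oeSTUB1 lay within the controls while its companions were well above them, and the log2 fold change was 0.45 (95% interval -0.01 to 0.92, limma, adjusted p = 0.177). Without that library the PARP14 value was 0.70 (adjusted p = 0.00131), with leave-one-out adjusted p between 0.00131 and 0.398.

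SP110, a nuclear body protein related to SP100, was the 1 member that fell. It was at 1.68, 1.53 and 1.50 in oeNC and 1.16, 1.06 and 1.04 FPKM in oeSTUB1, lower in every oeSTUB1 library, with a log2 fold change of -0.50 (SE 0.12, limma, adjusted p = 0.0368, called in 1 of 6 fits leaving out 1 library). SP110 lies on chromosome 2, whose 1039 tested genes had a median log2 fold change of -0.21, and the part of this in the SP110 value was not tested. SP100, its neighbour and the most abundant nuclear body gene tested, was at 2.26, 2.49 and 2.41 in oeNC and 2.99, 2.67 and 2.76 FPKM in oeSTUB1, and its difference of 0.23 (95% interval -0.02 to 0.47, limma, adjusted p = 0.197) did not pass although the groups did not overlap. PML, the scaffold of these nuclear bodies, had a log2 fold change of 0.11 (95% interval -0.16 to 0.39, limma, adjusted p = 0.576).

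The remaining effectors were divided, with 3 of 9 called, all higher, against 7.01% of all genes tested. Of the 3, IFI44 averaged 0.0421 FPKM in oeNC and passed the filter only through its oeSTUB1 level. IFI6, a small membrane protein that protects cells from flaviviruses, was at 2.17, 1.51 and 2.07 in oeNC and 3.27, 4.04 and 2.57 FPKM in oeSTUB1, with a log2 fold change of 0.74 (SE 0.20, limma, adjusted p = 0.0451, called in 2 of 6 fits leaving out 1 library). Its call stood in 7 of 16 alternatives. It was also lost with limma-voom, eBayes without a trend, median-ratio scaling, no filter and the replicate block. SAMD9, an antiviral protein that restricts poxviruses, was at 1.18, 0.831 and 0.944 in oeNC and 2.90, 1.49 and 2.35 FPKM in oeSTUB1, with a log2 fold change of 1.08 (SE 0.24, limma, adjusted p = 0.0255, called in 1 of 6 fits leaving out 1 library). IFI44, a cytoplasmic protein whose gene lies beside IFI44L, was at 0, 0.0438 and 0.0826 in oeNC and 0.253, 0.206 and 0.244 FPKM in oeSTUB1. It was near the limit of detection in the controls, with 0, 4 and 8 fragments in oeNC and 23, 18 and 22 in oeSTUB1, and had a log2 fold change of 1.28 (SE 0.29, limma, adjusted p = 0.0249, called in 2 of 6 fits leaving out 1 library).

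IFI35, a partner of NMI and the most abundant of these effectors, was at 12.4, 13.7 and 11.9 in oeNC and 10.3, 14.0 and 11.9 FPKM in oeSTUB1, with overlapping groups and a log2 fold change of -0.07 (95% interval -0.36 to 0.21, limma, adjusted p = 0.729). ISG20, a 3′-5′ exonuclease, was at 2.42, 2.28 and 2.48 in oeNC and 1.58, 2.34 and 1.73 FPKM in oeSTUB1. Replicates 1 and 3 of oeSTUB1 were below all controls and replicate 2 was among them, and the log2 fold change was -0.35 (95% interval -0.71 to 0.01, limma, adjusted p = 0.181). BST2, the tether that keeps budding virions on the cell, had a log2 fold change of 0.80 (95% interval 0.13 to 1.46, limma, adjusted p = 0.111) from 10, 6 and 16 fragments in oeNC and 24, 14 and 21 in oeSTUB1. IFI27, CMPK2 and SAMD9L had log2 fold changes of 0.66, 0.64 and 0.30 and did not pass the limma test, with adjusted p of 0.214, 0.177 and 0.471.

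**Figure D4:**
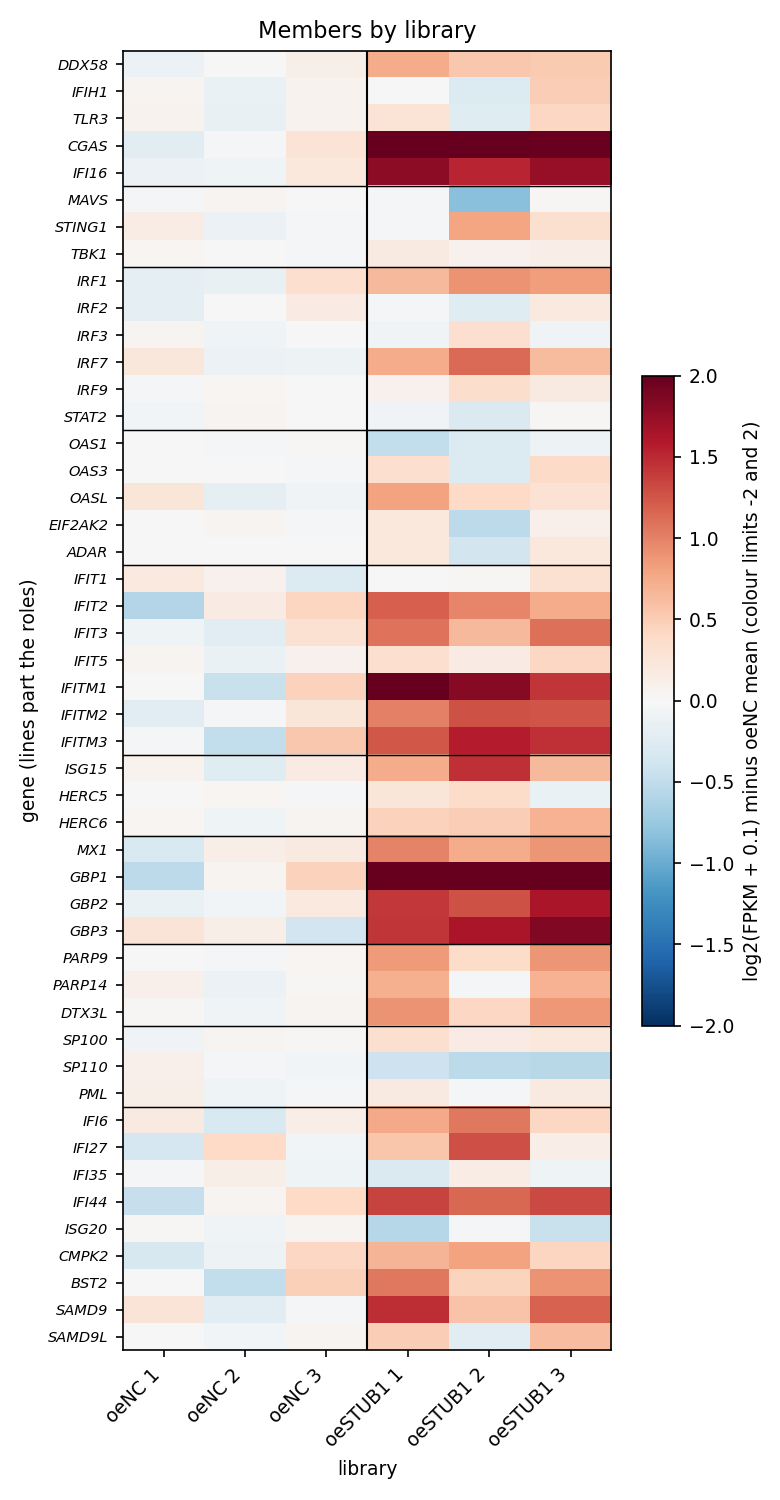
log2(FPKM + 0.1) of each tested member (rows, by role) in each library (columns), minus the gene's oeNC mean; red is above it, blue below, with colours limited at -2 and 2. CGAS, IFI16, IFITM1 to IFITM3 and GBP1 to GBP3 are red in all 3 oeSTUB1 libraries, and oeSTUB1 replicate 2 differs from its companions in MAVS, ADAR, OAS3, EIF2AK2 and PARP14.

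Of the 55 listed members, 7 were too low to judge. DHX58, OAS2, MX2, IFI44L, RSAD2, XAF1 and LAMP3 had means between 0.0170 and 0.0690 FPKM and were not tested. The highest library of each held between 5 and 19 fragments. IFI44L had 0, 1 and 0 fragments in oeNC and 6, 8 and 10 in oeSTUB1, and XAF1, an antagonist of the apoptosis inhibitor XIAP, had 1, 1 and 2 fragments in oeNC and 6, 4 and 7 in oeSTUB1. In both, and in OAS2, every oeSTUB1 library held more fragments than every control, and with no filter on low values IFI44L was among the genes called; the other 4 listed genes overlapped. MX2, the relative of MX1 that acts against HIV, had 3, 2 and 13 fragments in oeNC and 19, 8 and 19 in oeSTUB1. OAS2 had 3, 4 and 10 fragments in oeNC and 12, 12 and 12 in oeSTUB1. DHX58, which encodes the RIG-I regulator LGP2, had 8, 8 and 2 fragments in oeNC and 3, 3 and 5 in oeSTUB1, and RSAD2, which encodes viperin, had 3, 3 and 2 fragments in oeNC and 4, 5 and 2 in oeSTUB1. LAMP3 had 5, 12 and 9 fragments in oeNC and 7, 15 and 11 in oeSTUB1. Of the 48 tested members, 15 had a mean under 1 FPKM, from 0.108 (CMPK2) to 0.937 FPKM (IFIH1). Closest to the limit of 0.1 FPKM were CMPK2, OASL and IFI44, at 0.108, 0.134 and 0.138 FPKM.

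Over the 48 tested members, the median log2 deviation from the oeNC mean was 0.60, 0.41 and 0.46 in oeSTUB1 replicates 1, 2 and 3, with 38, 34 and 42 members above it. It was -0.01, -0.04 and 0.05 in oeNC replicates 1, 2 and 3. The library that stood apart by gene length, oeSTUB1 replicate 2, had the fewest of its group above the oeNC mean. Of the 20 members that rose, it was the highest of its group in 7 and the lowest in 9. In ISG15 its deviation was 1.47 against 0.75 and 0.64 in replicates 1 and 3, and in SAMD9 it was 0.56 against 1.48 and 1.19. oeNC replicate 3 was above the oeNC mean in 17 of the 20. Without oeSTUB1 replicate 2, 25 members rose, including all of the 20, against 14.8% of all genes, and 2 fell, SP110 and ISG20, against 12% of all genes. The 5 gained were ADAR, BST2, IFIT5, OAS3 and PARP14. Left out in turn, every other library cost calls. Without oeNC replicate 1, DDX58, DTX3L, HERC6, IFI44, IFI6, IFIT3, IRF1, ISG15, MX1, PARP9 and SAMD9 were no longer called, and without oeNC replicate 2 the same genes and IRF7. Without oeNC replicate 3 it was DDX58, DTX3L, HERC6, IFI6, IRF7, ISG15, MX1, PARP9 and SAMD9. Without oeSTUB1 replicate 1 it was DDX58, DTX3L, IFI44, IFI6, IFIT3, IRF7, ISG15, MX1, PARP9 and SAMD9, and without oeSTUB1 replicate 3 it was DTX3L, HERC6, IFI44, IFIT3, MX1, PARP9 and SAMD9. All of these kept a log2 fold change above 0 in the same fits. CGAS, IFI16, IFITM1, IFITM2, IFITM3, GBP1, GBP2 and GBP3 were called whichever library was left out. Among the other alternatives, no filter on low values also ended the calls of IRF7, IFIT3, PARP9, SAMD9 and SP110. A pseudocount of 0.01 ended those of MX1 and IFI44, the replicate block those of DDX58, HERC6, MX1 and SP110, and quantile normalization that of SP110.

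The upstream part of the pathway was described with genes that are not members. Of 22 interferon genes, 3 were listed and 1, IFNE, was high enough to test. IFNE, an epithelial type I interferon encoded, like DDX58, on chromosome 9, was at 1.64, 1.31 and 1.22 in oeNC and 3.17, 3.38 and 3.21 FPKM in oeSTUB1, with no overlap of the groups and a log2 fold change of 1.18 (SE 0.13, limma, adjusted p = 0.00140). IFNB1 and IFNA5 each had 1 fragment in oeSTUB1 replicate 1 and 0 in the 5 other libraries, which allows up to 3 fragments in each of those. Of 9 genes for interferon receptors and JAK kinases, 0 were called by limma at the adjusted threshold and 0 with limma-voom, and at an unadjusted p under 0.05 there were 2, IFNGR1 and IFNGR2, both higher. Over all genes tested, limma called 7.01% higher and 6.59% lower, so 9 genes are too few to be set apart from those shares. The receptor subunits IFNAR1 and IFNAR2 had log2 fold changes of 0.08 (95% interval -0.15 to 0.31, limma, adjusted p = 0.640) and -0.09 (95% interval -0.30 to 0.12, limma, adjusted p = 0.552).

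Of 14 tested genes that relay sensing, 2 rose (14.3%, against 7.01% of all genes tested): TRIM25, a ubiquitin ligase that activates RIG-I, with a log2 fold change of 0.43 (SE 0.10, limma, adjusted p = 0.0255, called in 1 of 6 fits leaving out 1 library), and MYD88, the adaptor of Toll-like receptors, with a log2 fold change of 0.48 (SE 0.10, limma, adjusted p = 0.0164, called in 2 of 6 fits leaving out 1 library). Of 14 tested negative regulators, 1 rose (7.14%, against 7.01% of all genes): TNFAIP3, a ubiquitin-editing enzyme that restrains NF-kB, with a log2 fold change of 1.42 (SE 0.19, limma, adjusted p = 0.00279). USP18, which removes ISG15 and blocks receptor signalling and is a sensitive interferon target, was at 3.01, 3.29 and 3.49 in oeNC and 3.27, 3.76 and 3.10 FPKM in oeSTUB1, with overlapping groups and a log2 fold change of 0.04 (95% interval -0.22 to 0.31, limma, adjusted p = 0.834).

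Markers of other cells were read from fixed lists. The leukocyte marker CD68, a lysosomal protein of macrophages, was at 27.2 ± 0.442 in oeNC and 19.2 ± 0.163 FPKM in oeSTUB1 (SD, n = 3 each). CD14, a co-receptor for bacterial lipopolysaccharide, was at 5.05 ± 0.926 in oeNC and 5.24 ± 0.706 FPKM in oeSTUB1. Of 8 leukocyte genes, 4 were high enough to test, 0 were higher and 1, CD68, was lower by limma, against 7.01% and 6.59% of all genes tested. Their summed level was 31.9 to 33.8 FPKM in oeNC and 24.6 to 26.0 FPKM in oeSTUB1, nearly all of it CD68 and CD14. The pan-leukocyte gene PTPRC was at 0.121 ± 0.0783 in oeNC and 0.225 ± 0.0824 FPKM in oeSTUB1 and the T cell gene CD3E at 0.0275 ± 0.0238 in oeNC and 0.0868 ± 0.0218 FPKM in oeSTUB1 (SD, n = 3 each). The groups overlapped in PTPRC. CD3E had 0, 2 and 2 fragments in oeNC and 3, 4 and 5 in oeSTUB1 and was too low to judge. The summed level of 6 fibroblast genes was 1.29 to 2.32 FPKM in oeNC and 2.03 to 3.84 FPKM in oeSTUB1, with DCN and COL1A2 at or near 0, and that of 4 endothelial genes was at most 0.231 FPKM. The 7 biliary epithelial genes summed to 7419 to 7996 FPKM in oeNC and 4724 to 6264 FPKM in oeSTUB1. KRT8, KRT18, EPCAM and CDH1 were called lower and KRT19 higher, against 6.59% and 7.01% of all genes tested. KRT8 and KRT18 were each called in 1 of 6 fits leaving out 1 library. KRT7 was above oeNC in every oeSTUB1 library but not called (limma, adjusted p = 0.0818), and SOX9 overlapped. The part of these differences in the interferon genes was not tested.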

How the data were processed

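RNA was sequenced from 3 oeNC and 3 oeSTUB1 samples of TFK1 cells, grouped by their labels, and columns were matched to samples by name. The authors deposited FPKM values per gene symbol for 23569 genes. The submitters' processing notes name fastp 0.20.1, HISAT2 2.1.0, HTSeq 0.11.2, R 3.2.0, DESeq2 1.22.2 and GRCh38.p13; the annotation and the strand setting are not given in the sources used here, so reads of overlapping genes on opposite strands may not have been told apart. FPKM values were whole multiples of the worth of 1 fragment, and whole fragments were recovered for 23569 genes (100.0%, largest difference 4.9e-06 FPKM), possibly too low by a common divisor. The intervals given with log2 fold changes are from limma and rest on the spread between libraries. Floors of 3 fragments cover counting error only.

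Groups were compared with limma 3.58.1 (R 4.3.3) on log2(FPKM + 0.1), with an intensity trend, over genes averaging 0.1 FPKM or more, two-sided, with Benjamini-Hochberg adjustment over all of them. Members with a mean FPKM under 0.1, or under 10 fragments in every library, were too low to judge. Every called member and the most abundant tested member of each role were given in every library, and of other pathway genes at most 3 per list and direction. The alternatives changed the pseudocount to 1 or to 0.01, dropped the filter or raised it to 1 FPKM, or used median-ratio scaling, quantile normalization, a lowess correction for gene length, eBayes without a trend, a replicate block, limma-voom on recovered fragments and leaving out each library. The scripts were tested on simulated data, in which only genes of at least 1 FPKM were changed and no library stood apart. That test therefore does not cover changes in lower genes or a library such as oeSTUB1 replicate 2. Gene positions are from GENCODE v29 and promoters from RefSeq. A marker and a pathway gene of the lists are not reported here. The members and lists were chosen with earlier results of these data known. Python 3.11.15 was used for the other steps.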

Additional observations from a re-analysis of the deposited data

How the results depend on the processing

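The 21 called members kept their direction in all of the 16 alternatives in which they were tested, and IFITM1, IFITM2, IFITM3, GBP2 and GBP3 were called in all 16. CGAS, IFI16 and GBP1 were called in 15, all those in which they were tested, as the filter of 1 FPKM left them out. The number of members that rose, 20 as reported, ranged from 8 to 25 when 1 library was left out: 9, 8 and 11 without oeNC replicates 1, 2 and 3, and 10, 25 and 13 without oeSTUB1 replicates 1, 2 and 3. The share of all genes called higher moved too, from 7.01% to 14.8% without oeSTUB1 replicate 2. The number of members that rose lay between 14 and 22 in the other alternatives, with 14 at a filter of 1 FPKM, where 33 members were tested, and 22 with the length correction. All genes called higher moved as well, from 1076 of 15353 as reported to 794 of 11375 at that filter. With the length correction 1675 of 15353 were called higher. With the replicate number as a block 15 members rose, and DDX58, HERC6, IFI6, ISG15 and MX1 lost their call. Deviations of same-numbered libraries from their group means correlated at -0.0491, -0.0521 and 0.0617, and those of different-numbered libraries at -0.0972 to 0.11. These values gave no sign of pairing by number, but cannot exclude it, and the labels do not say. The number that fell, 1, was 0 with no filter, 0 with quantile normalization, 0 with the replicate block and 0 to 2 without 1 library. The number that rose past 2-fold, 10, was 6 at a filter of 1 FPKM and 3 at a pseudocount of 1. The sign turned for members near 0 that were not called: with the length correction EIF2AK2 was at 0.0185, IRF2 at 0.0503 and IRF3 at -0.00118; ADAR was at -0.00761 with median-ratio scaling; and with quantile normalization ADAR was at -0.0326, IRF2 at 0.0205 and IRF3 at -0.029. Without 1 library, IFIT1 lay between -0.0293 and 0.211, IRF2 between -0.131 and 0.0872, ADAR between -0.0786 and 0.209, IFI35 between -0.185 and 0.0335, EIF2AK2 between -0.215 and 0.155, IRF3 between -0.0689 and 0.135 and IFIH1 between -0.141 and 0.244. The cause was not tested. Members under about 20 fragments in a library, such as IFI44, CMPK2 and BST2, are limited by depth.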

Other observations

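Other interferon-stimulated genes outside the set, a list also chosen with earlier results of these data known, were followed in the same fit. Of 47 such genes, 39 were tested, 10 rose (25.6%), against 7.01% of all genes tested, and 3 fell (7.69%), a share near the 6.59% of all genes. The 3 that rose most were PSMB8, a catalytic subunit of the immunoproteasome, at 2.15, 2.23 and 2.02 in oeNC and 7.38, 9.59 and 7.50 FPKM in oeSTUB1 with a log2 fold change of 1.88 (SE 0.12, limma, adjusted p = 0.000166); LGALS3BP, a secreted glycoprotein, at 17.9, 16.1 and 19.4 in oeNC and 57.3, 64.1 and 67.5 FPKM in oeSTUB1 with a log2 fold change of 1.82 (SE 0.10, limma, adjusted p = 7.88e-05); and PARP10, a mono-ADP-ribosyltransferase, at 0.111, 0.135 and 0.165 in oeNC and 0.496, 0.499 and 0.694 FPKM in oeSTUB1 with a log2 fold change of 1.48 (SE 0.21, limma, adjusted p = 0.00379). The 3 that fell were SLFN5 and SLFN11, members of the Schlafen family, and APOL2, an apolipoprotein L. SLFN5 was at 8.23, 7.99 and 9.20 in oeNC and 3.95, 2.36 and 5.36 FPKM in oeSTUB1 with a log2 fold change of -1.18 (SE 0.26, limma, adjusted p = 0.0225, called in 2 of 6 fits leaving out 1 library), and SLFN11 was at 9.82, 10.3 and 8.67 in oeNC and 4.71, 3.64 and 4.87 FPKM in oeSTUB1 with a log2 fold change of -1.11 (SE 0.13, limma, adjusted p = 0.00168). APOL2 was at 11.6, 11.6 and 8.78 in oeNC and 7.05, 7.76 and 7.86 FPKM in oeSTUB1 with a log2 fold change of -0.48 (SE 0.12, limma, adjusted p = 0.0417, called in 2 of 6 fits leaving out 1 library). In none of these 6 genes did the groups overlap, but all were picked from the called genes. Of the 39 tested, 15 had all oeSTUB1 libraries above all oeNC libraries (38.5%), against 21.5% of all genes. For 6 they lay below (15.4%), against 17.3% of all genes.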
